A study of Homo sapiens with 12 samples.

Results

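The aminoacyl-tRNA synthetase genes were described in MSTO-211H, an established human mesothelioma cell line, as 36 protein-coding genes picked by symbol from a table of 58735 genes. They were 20 genes for enzymes of the cytosol and 16 for enzymes of the mitochondrion, whose symbols end in 2. Cells were grown in suspension with growth factors, and the submitters call them mesothelioma-initiating. They were given 10 µM of a compound named only QTP, or its vehicle, and 1 day later 4 Gy of radiation or a sham exposure, and RNA was isolated 48 h after that. The groups, of 3 libraries each, were Combo (QTP and 4 Gy), Rx (QTP and sham), IR (vehicle and 4 Gy) and Con (vehicle and sham). No label spells out Rx and Combo; they were read so because these are the arms of the described design that the titles Con and IR leave. The series title speaks of combining inhibition of dopamine receptors with radiotherapy, so the comparisons ask what each treatment does alone and together. All 4 groups come from 1 cell line, and it is not stated whether the replicates were grown as separate cultures; a p-value here reflects the spread among the libraries sequenced, possibly technical only.

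An aminoacyl-tRNA synthetase joins an amino acid to the tRNAs that read its codons, and this charged tRNA is what the ribosome uses. Human cells keep one set of enzymes for the cytosol and another for the mitochondrial ribosome, and all of them are made from nuclear genes; GARS and KARS supply both places, and EPRS joins 2 activities, for glutamate and proline, in 1 protein. A group of the cytosolic enzymes sits in a multisynthetase complex held by the scaffold proteins AIMP1, AIMP2 and EEF1E1. ATF4, the transcription factor of the integrated stress response, is known, mostly from work in mouse cells, to drive genes of amino acid supply together with many of the cytosolic synthetase genes.

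Whole reads recovered from the deposited FPKM (reads set against gene length and library size, as scaled by the authors) came to 13188257 to 18630958 per library, and 1 FPKM of a gene of 1 kb rested on 13.3 to 19.1 reads. Combo libraries averaged 18109500 reads and Rx libraries 17253400, against 14862000 in IR and 15216800 in Con. IR 3 had the fewest genes above 0 (23102) and the largest share of reads on the mitochondrial genome (10.5%), Combo 3 the most genes above 0 (26527), and results that move without this pair are given without it too. The part of sequencing depth, which was higher with QTP, in the differences below was not tested. Of 8 mesothelial markers, 4 reached a mean of 1 FPKM and 3 were under 0.1 FPKM; of 6 markers of blood, vessel and stromal cells, 5 were under 0.1 FPKM, and the sum of the 6 was 1.79 to 3.80 FPKM per library.

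The cytosolic genes were the more abundant set. Their mean levels over the 12 libraries ran from 6.50 FPKM for CARS (cysteine) to 115 FPKM for AARS (alanine), with a median of 38.5 FPKM, and 19 of the 20 were above 10 FPKM. The mitochondrial genes had a median of 7.87 FPKM, and 5 of the 16 were above 10 FPKM. The most abundant of them was IARS2 (isoleucine) at 45.1 FPKM, and the next was YARS2 (tyrosine) at 25.6 FPKM. At the low end, SARS2 (serine; ENSG00000104835, chromosome 19, 38915266 to 38930896 in hg38) averaged 0.371 FPKM.

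SARS2 is the member that missed the filter for testing, a mean of 1 FPKM. It had 0.422, 0.585 and 0.388 FPKM in Combo, 0.484, 0.340 and 0.435 FPKM in Rx, 0.150, 0.221 and 0.354 FPKM in IR, and 0.259, 0.389 and 0.420 FPKM in Con, from 7 to 36 reads per library. Combo lay above IR without overlap, and the other pairs of groups overlapped. It shares 15493 bases with AC011455.2, a protein-coding gene on the same strand at 0.0129 FPKM, and 349 bases with MRPS12, on the opposite strand at 13.0 FPKM; the part of either in its values was not tested. The other 35 members, 20 cytosolic and 15 mitochondrial, were among the 13038 genes tested.

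**Figure D1:**
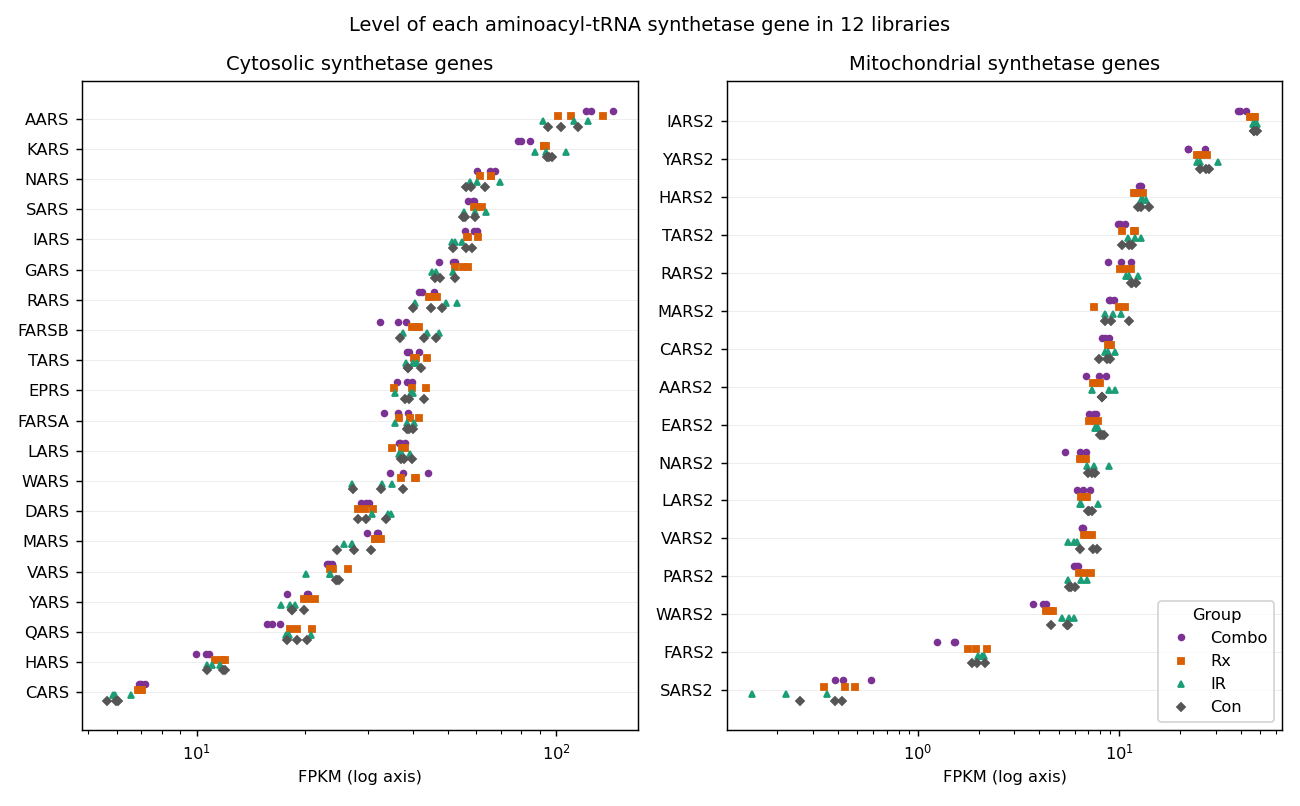
Level of each synthetase gene in every library, in FPKM on a log axis, with cytosolic genes on the left and mitochondrial genes on the right, ordered by their mean; each point is 1 of 3 libraries of Combo, Rx, IR or Con. Cytosolic genes lie between 6.50 and 115 FPKM on average and most mitochondrial genes below 10 FPKM.

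Set against each other, the 2 sets differed in balance between libraries with and without QTP. The summed FPKM of the cytosolic genes was 5.11, 5.15 and 5.58 times that of the mitochondrial genes in Combo and 4.91, 5.22 and 4.98 times in Rx, against 4.73, 4.67 and 4.63 times in IR and 4.70, 4.54 and 4.75 times in Con. All 6 QTP libraries lay above all 6 others, and a ratio within a library does not depend on how the library was scaled. The means were 5.28 ± 0.256 in Combo, 5.04 ± 0.164 in Rx, 4.68 ± 0.0503 in IR and 4.66 ± 0.114 in Con (SD, n = 3 each). Combo stood 0.62 above Con, Rx 0.37 above Con and IR 0.01 above Con, beside a spread between replicates of 0.164. These differences are given with no test, since they are sums over a list chosen with earlier results known. The mitochondrial sum was 170, 159 and 153 FPKM in Combo and 175, 170 and 175 FPKM in Rx. It was 173, 178 and 187 FPKM in IR and 173, 182 and 180 FPKM in Con. This sum lay lower in Combo than in Con without overlap, while Rx and Con overlapped. The cytosolic sum was 869, 821 and 853 FPKM in Combo and 860, 885 and 871 FPKM in Rx. It was 817, 832 and 868 FPKM in IR and 816, 827 and 857 FPKM in Con. Combo and Con overlapped in the cytosolic sum, and Rx lay above Con without overlap. Its means were 848 ± 24.8 FPKM in Combo, 872 ± 12.8 FPKM in Rx, 839 ± 26.2 FPKM in IR and 833 ± 21.2 FPKM in Con. As a proportion, the mean ratio in Combo stood 13.2% above Con and 12.9% above IR. Without AARS, the most abundant member, these were 9.52% and 9.86%. In RNA from whole cultures, fewer cells of a type and less RNA per cell cannot be told apart.

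**Figure D2:**
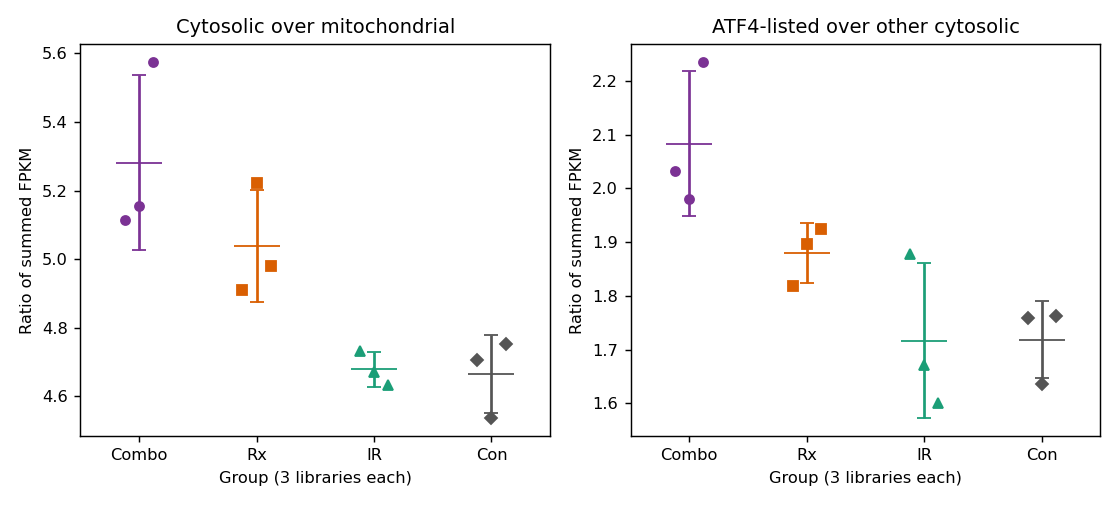
Ratios of summed FPKM in each library for Combo, Rx, IR and Con; points are libraries, the wide bar is the mean and the error bar the SD of 3 libraries, and the axes do not start at 0. On the left, cytosolic over mitochondrial genes, the 6 QTP libraries lie at 4.91 to 5.58 and the 6 others at 4.54 to 4.75; on the right, the 12 cytosolic genes listed as ATF4 targets over the other 8, the 3 Combo libraries lie highest.

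With QTP and radiation together, mitochondrial synthetase genes lay mostly below the control. Cytosolic genes lay on both sides of it, in shares near those of all genes. In Combo against Con, 14 of the 15 tested mitochondrial members had the lower mean in Combo, where 51.5% of all tested genes did, and their median log2 difference was -0.11, against -0.01 for all tested genes. Groups did not overlap for 5 of the 15, all lower in Combo, where 12.8% of all genes were lower without overlap. Some mesothelial markers moved with this difference. KRT18, KRT8 and CALB2, 3 of the 8, also lay lower in Combo than in Con without overlap. For MSLN and WT1 the groups Combo and Con overlapped, and WT1 had the higher mean in Combo. UPK3B and KRT19 averaged under 0.1 FPKM, and PDPN was at 0 in every library. The 8 together summed to 686 to 1031 FPKM in Combo and 936 to 1242 FPKM in Rx. In IR the sum was 1024 to 1418 FPKM and in Con 1024 to 1296 FPKM. KRT18 and KRT8 made up most of this sum. The part of the markers in the result was not tested. Of the 20 cytosolic members, 9 were higher, where 48.5% of all genes were, and 11 lower, with a median of -0.02 (0.036 under quantile scaling). CARS and AARS were higher without overlap, where 10% of genes were. KARS, QARS and VARS were lower without overlap, where 12.8% of genes were. No member passed an adjusted p of 0.05, and 0% of the tested genes did (limma with Benjamini-Hochberg adjustment); at an unadjusted p under 0.05 there were 3 cytosolic members higher, where 5.49% of genes were, and 3 cytosolic and 5 mitochondrial members lower, where 7.69% of genes were.

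IARS2 (ENSG00000067704, chromosome 1, 220094102 to 220148041), which charges the mitochondrial isoleucine tRNA, had the smallest p of the members in Combo against Con. It had 42.4, 39.5 and 38.7 FPKM in Combo, against 47.1, 44.2 and 46.4 FPKM in Rx, 46.3, 46.8 and 48.0 FPKM in IR and 46.8, 48.2 and 46.4 FPKM in Con. The 3 Combo libraries lay below the other 9, which overlapped one another. Combo was lower than Con by a log2 difference of -0.23 (SE 0.06, adjusted p = 0.152 by limma), and the adjusted p against Rx was 0.545.

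FARS2 (ENSG00000145982, chromosome 6, 5261044 to 5829192), the mitochondrial phenylalanine enzyme and the lowest of the tested members, showed the same split on few reads, 115 to 198 per library. It had 1.52, 1.25 and 1.51 FPKM in Combo, against 2.21, 1.94 and 1.77 FPKM in Rx, 2.09, 1.97 and 2.12 FPKM in IR and 1.85, 1.97 and 2.15 FPKM in Con. Again the 3 Combo libraries were below the other 9. The log2 difference from Con was -0.30 (SE 0.09, adjusted p = 0.203 by limma).

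WARS2 (ENSG00000116874, chromosome 1, 119031216 to 119140671), the mitochondrial tryptophan enzyme, was low in both QTP groups. It had 4.17, 4.34 and 3.74 FPKM in Combo and 4.53, 4.66 and 4.33 FPKM in Rx, against 5.19, 5.62 and 5.97 FPKM in IR and 5.50, 5.56 and 4.59 FPKM in Con. Con 3 lay among the Rx libraries, and the other Con and IR libraries lay above all QTP libraries. The log2 difference of Combo from Con was -0.29 (SE 0.08, adjusted p = 0.188 by limma). A non-coding antisense gene that overlaps it by 276 bases averaged 2.82 FPKM, and whether the authors counted by strand is not given in the sources used here.

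CARS (ENSG00000110619, chromosome 11, 3000922 to 3057613), the cytosolic cysteine enzyme, went the other way. It had 6.92, 7.01 and 7.19 FPKM in Combo and 6.98, 7.06 and 6.86 FPKM in Rx, against 6.55, 5.84 and 5.94 FPKM in IR and 5.95, 5.65 and 6.04 FPKM in Con, from 804 to 1380 reads. All 6 QTP libraries lay above all 6 others, and Combo and Rx overlapped. Combo was higher than Con by 0.23 on the log2 scale (SE 0.06, adjusted p = 0.155 by limma), and Rx was higher than Con by 0.21 (SE 0.06).

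AARS (ENSG00000090861, chromosome 16, 70252295 to 70289543) had the largest difference of the members in Combo against Con and a wide spread. It had 121, 125 and 144 FPKM in Combo and 101, 135 and 110 FPKM in Rx, against 122, 112 and 92.0 FPKM in IR and 115, 103 and 94.6 FPKM in Con. Combo and Con did not overlap, while Rx and IR overlapped both. The log2 difference of Combo from Con was 0.32 (SE 0.13, adjusted p = 0.350 by limma).

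**Figure D3:**
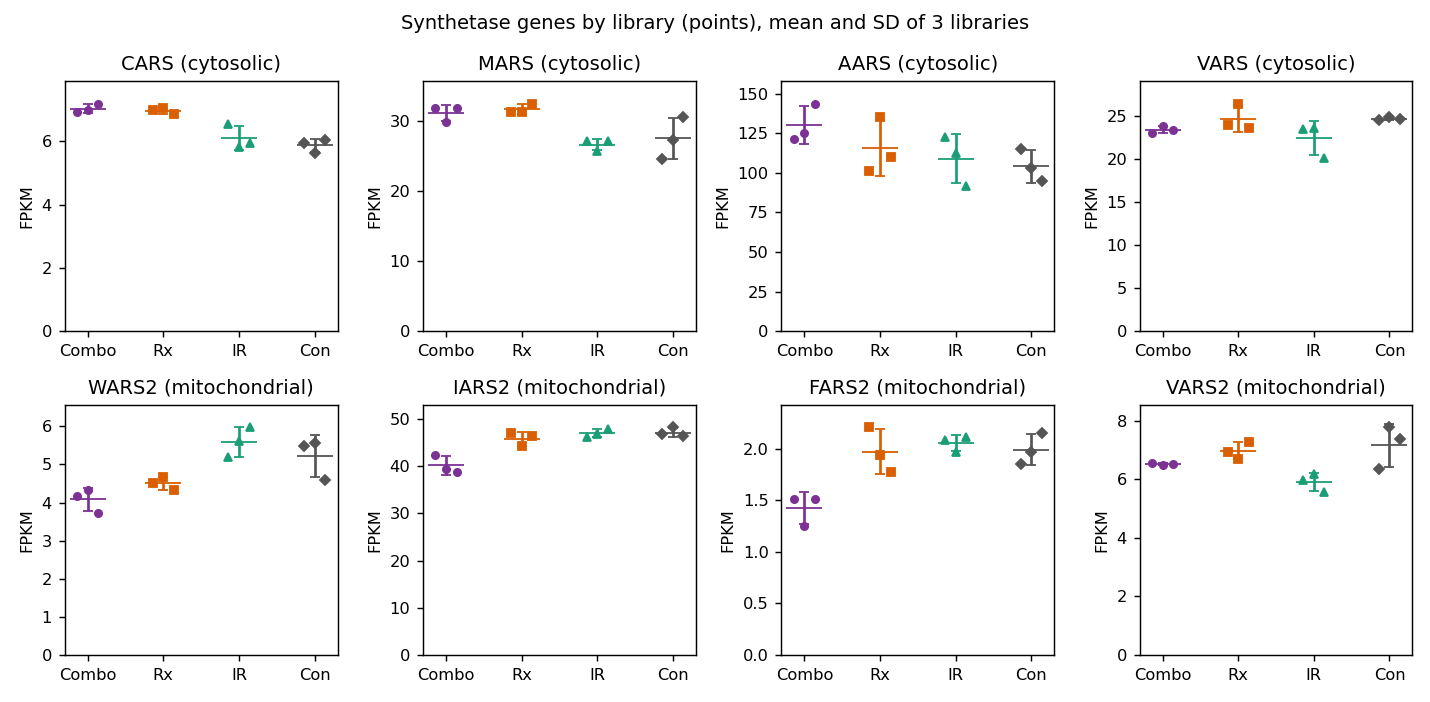
Level of 8 synthetase genes by library in FPKM, from 0, for Combo, Rx, IR and Con; points are libraries, the wide bar is the mean and the error bar the SD of 3 libraries. CARS lies higher in all 6 QTP libraries, IARS2 and FARS2 lie lowest in the 3 Combo libraries, and VARS2 lies lowest in the 3 IR libraries.

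The cytosolic set was divided into 12 genes commonly listed as ATF4 targets (AARS, CARS, EPRS, GARS, IARS, LARS, MARS, NARS, SARS, TARS, WARS, YARS) and the other 8, a listing made with earlier results of these data known; the difference between the 12 and the 8 was not tested. Of the 12, 9 had the higher mean in Combo and 3 (EPRS, LARS, TARS) the higher mean in Con, with a median log2 difference of 0.06, where 48.5% of all genes were higher. All 8 others (DARS, FARSA, FARSB, HARS, KARS, QARS, RARS, VARS) were lower in Combo, with a median of -0.12. The summed FPKM of the 12 was 2.03, 1.98 and 2.24 times that of the 8 in Combo and 1.82, 1.90 and 1.93 times in Rx, against 1.88, 1.67 and 1.601 times in IR and 1.76, 1.64 and 1.76 times in Con. Combo lay above all other libraries, and Rx above Con, while IR 1 lay among the Rx libraries. KARS, the most abundant of the 8, averaged 80.9 ± 3.30 FPKM in Combo, 92.8 ± 0.767 FPKM in Rx, 95.7 ± 9.61 FPKM in IR and 95.7 ± 1.74 FPKM in Con (SD, n = 3 each), and did not pass (adjusted p = 0.222 against Con, limma).

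ATF4 binds DNA with C/EBP partners at a C/EBP-ATF response element, so the promoters of the members were read for it. The element was searched as TGATGNAA on both strands, where the opposite strand reads TTNCATCA, in RefSeq promoter windows of 300 bases (250 before to 50 after the gene start, GRCh38.p14). A window was found for 30 of the 36 members. Of these, 8 (26.7%) held the element, against 4.46% of the 27305 genes of the promoter table (3.62% of its 35116 windows). By set, it was found in 7 of 10 listed as ATF4 targets, in 0 of 6 other cytosolic members and in 1 of 14 mitochondrial members. The 8 matches are shown with 11 bases on each side, in the direction of the gene, with the element in capitals, because these are the members whose differences are given next.
AARS, chr16:70289675-70289704, minus strand: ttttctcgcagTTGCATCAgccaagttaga
NARS, chr18:57621804-57621833, minus strand: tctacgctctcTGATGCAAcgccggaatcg
IARS, chr9:92293692-92293721, minus strand: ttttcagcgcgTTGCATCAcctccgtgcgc
GARS, chr7:30594834-30594863, plus strand: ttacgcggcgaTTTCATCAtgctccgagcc
TARS, chr5:33440956-33440985, plus strand: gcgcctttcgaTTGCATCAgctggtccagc
MARS, chr12:57488053-57488082, plus strand: gccggttccggTTGCATCAgcgagggattc
CARS, chr11:3057407-3057436, minus strand: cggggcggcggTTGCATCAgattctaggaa
YARS2, chr12:32756076-32756105, minus strand: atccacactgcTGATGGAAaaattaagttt

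In 6 of the 7 cytosolic genes the element reads on the strand opposite to the gene, and in the same letters, TTGCATCA, in 5 of them. It begins 13, 4 and 2 bases before the start of IARS, MARS and CARS, and at base 15 and base 3 after the start of NARS and TARS. A match is a description of these letters and not a bound site, and a window without one says only that these letters are not in it.

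With QTP averaged over both radiation arms, the 7 cytosolic genes with the element lay higher and most of the 9 without it lower; the difference between them was not tested. All 7 were higher with QTP than without, with a median log2 difference of 0.12 and a range of 0.03 to 0.21, where 48.1% of all tested genes were higher. Of the 9 without it, 2 were higher, WARS and SARS, and the median was -0.04. All 7 with the element are listed as ATF4 targets, and 6 of the 9 are not. This split therefore largely repeats the listing above, on the same genes. The listed genes without the element, WARS, SARS and EPRS, differed by 0.28, 0.03 and -0.02. In Rx against Con the medians were 0.14 with the element (7 of 7 higher) and 0.02 without it (5 of 9 higher), and in Combo against Con they were 0.12 (6 of 7 higher) and -0.12 (2 of 9 higher). These comparisons share libraries, so they do not count as separate evidence. YARS2, the mitochondrial gene with a match, had a difference of -0.12 with QTP averaged.

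**Figure D4:**
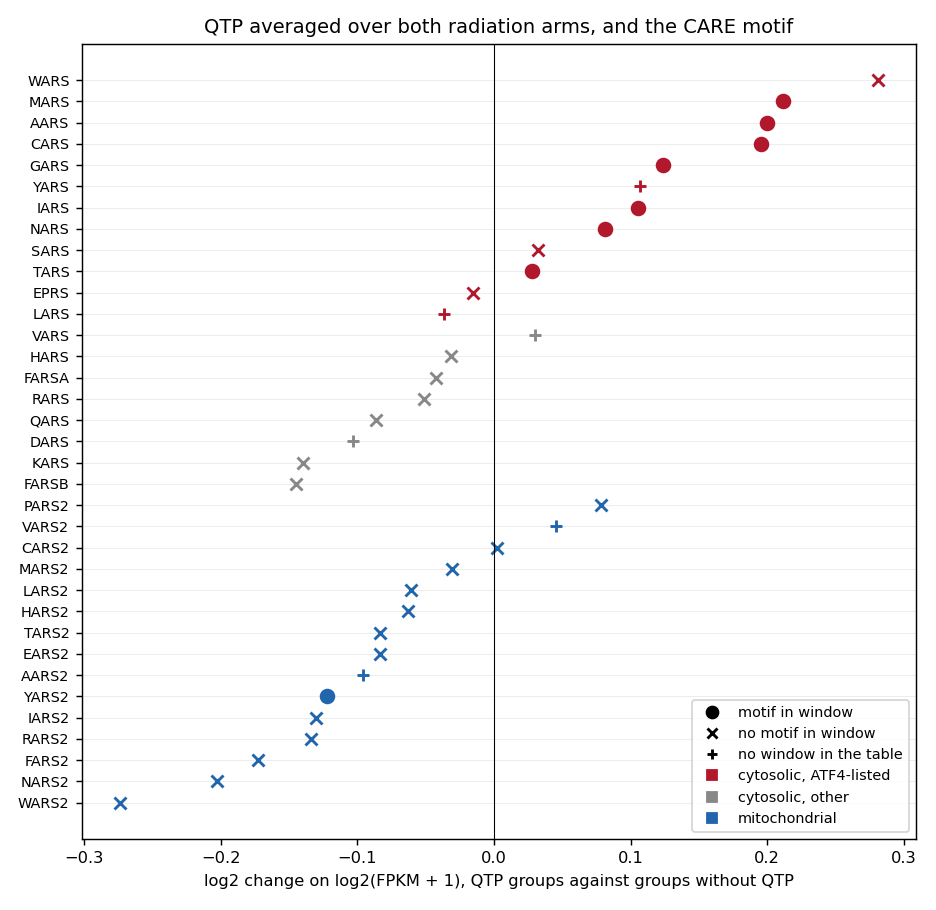
Log2 difference of the 35 tested synthetase genes between QTP groups and groups without QTP, averaged over both radiation arms, on the log2(FPKM + 1) scale; filled circles have the element in their promoter window, crosses do not, plus signs have no window in the promoter table, and colours give the set. The 7 cytosolic genes with the element lie at 0.03 to 0.21, and mitochondrial genes lie mostly below 0.

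Other genes of the ATF4 programme lay higher too. Of 21 genes listed outside the synthetases, 19 were tested, and all 19 were higher in Combo than in Con, where 48.5% of all tested genes were. Their median was 0.30, with 12 of them at an unadjusted p under 0.05, where 5.49% of genes were higher, and 0 past the adjusted threshold. CHAC1 and NUPR1 averaged under 1 FPKM and were not tested. On average CHAC1 had 0.960 FPKM in Combo and 0.979 FPKM in Con, and NUPR1 had 0.238 FPKM in Combo and 0.121 FPKM in Con. In Rx against Con, all 19 were again higher, where 51.7% of genes were, with a median of 0.22. In IR against Con 15 were higher, where 52.6% of genes were, with a median of 0.06 (-0.05 under TPM and -0.03 under quantile scaling). ATF4 itself, which is controlled largely through its translation, had 147, 143 and 158 FPKM in Combo and 142, 180 and 154 FPKM in Rx, against 140, 135 and 157 FPKM in IR and 149, 125 and 140 FPKM in Con, and the groups overlapped. ASNS, which makes asparagine and is a classical ATF4 target, had 2.23, 2.16 and 3.08 FPKM in Combo and 2.07, 1.53 and 2.03 FPKM in Rx, against 1.44, 1.35 and 1.01 FPKM in IR and 1.96, 1.57 and 1.51 FPKM in Con. Combo lay above Con for ASNS without overlap, and the adjusted p was 0.284 (limma). The 5 genes for the eIF2 kinases and GCN1, which feed this response, had a median of -0.03 in Combo against Con (0.02 under quantile scaling), and 0 of them passed.

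MARS (ENSG00000166986, chromosome 12, 57475445 to 57517569), the cytosolic methionine enzyme, needs care. It had 31.9, 29.8 and 31.8 FPKM in Combo and 31.3, 31.3 and 32.5 FPKM in Rx, against 27.1, 25.7 and 27.1 FPKM in IR and 24.6, 27.3 and 30.5 FPKM in Con. QTP libraries lay above the others except for Con 3, and the log2 difference with QTP averaged was 0.21 (SE 0.05, adjusted p = 0.191 by limma). Its end overlaps DDIT3, a stress gene of the ATF4 programme on the opposite strand, by 982 bases, and without strand the reads of the 2 genes there cannot be told apart. DDIT3 had 16.2, 14.5 and 19.3 FPKM in Combo and 16.1, 15.5 and 13.3 FPKM in Rx, against 11.5, 13.4 and 16.3 FPKM in IR and 12.6, 8.87 and 11.02 FPKM in Con; its part in the MARS values was not tested. In all, 10 members overlap a protein-coding gene of at least 1 FPKM. Among them, KARS shares 858 bases with TERF2IP. The gene body of YARS2 shares 18161 bases with DNM1L, on the opposite strand at 19.7 FPKM, and the part of DNM1L in the YARS2 values was not tested. Without these 10 members, the summed ratio of cytosolic to mitochondrial genes stood 16.3% higher in Combo than in Con.

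QTP alone and radiation alone gave fewer members at an unadjusted p under 0.05 than both together. In Rx against Con, 12 of 15 mitochondrial members were lower, where 48.3% of all genes were, with a median of -0.06, and 13 of 20 cytosolic members were higher, with a median of 0.05 (-0.04 under TPM scaling). The 12 members listed as ATF4 targets had a median of 0.12, and 10 of them were higher, where 51.7% of all genes were; under TPM scaling the median was 0.027 and 8 were higher. The mitochondrial median was -0.15 under TPM, with 14 of 15 lower. Without overlap, 5 mitochondrial members (AARS2, EARS2, LARS2, NARS2, RARS2) were lower in Rx than in Con and 1 (PARS2) higher. Among cytosolic members, 1 (KARS) was lower without overlap and 2 (CARS, MARS) higher. Of the 13038 tested genes, 414 were lower without overlap and 600 higher. At an unadjusted p under 0.05, CARS, MARS, GARS and PARS2 were higher, where 2.36% of genes were, and 0 members were lower, where 0.897% of genes were; each adjusted p was 1.00 (limma), 0% of genes passed, and after adjustment these are not distinguished from Con. In IR against Con the medians were -0.01 for cytosolic and 0.01 for mitochondrial members, and 0% of genes passed. Under TPM scaling they were -0.12 (19 of 20 lower) and -0.09 (14 of 15 lower), and under quantile scaling -0.07 (17 of 20 lower) and -0.01 (8 of 15 lower), beside 13 of 20 and 6 of 15 lower as deposited. VARS2 was the 1 member lower at an unadjusted p under 0.05, where 3.17% of genes were, and 3 members (VARS2, VARS, EARS2) lay below Con without overlap, where 4.98% of genes did.

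VARS2 and VARS, the mitochondrial and cytosolic valine enzymes, had the smallest p values in IR against Con. VARS2 (ENSG00000137411, chromosome 6, 30908242 to 30926459) had 6.56, 6.48 and 6.52 FPKM in Combo and 6.94, 6.69 and 7.27 FPKM in Rx, against 5.97, 6.18 and 5.57 FPKM in IR and 6.34, 7.76 and 7.38 FPKM in Con. The 3 IR libraries were the lowest of the 12, and the difference from Con was -0.24 (SE 0.07, adjusted p = 0.680 by limma). VARS (ENSG00000204394, chromosome 6, 31777518 to 31795953) had 23.0, 23.8 and 23.3 FPKM in Combo and 23.9, 26.4 and 23.5 FPKM in Rx, against 23.5, 23.5 and 20.1 FPKM in IR and 24.5, 24.8 and 24.6 FPKM in Con. IR lay below Con without overlap, by -0.14 (SE 0.07, adjusted p = 0.741 by limma), and 1 IR library set much of that difference.

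**Figure D5:**
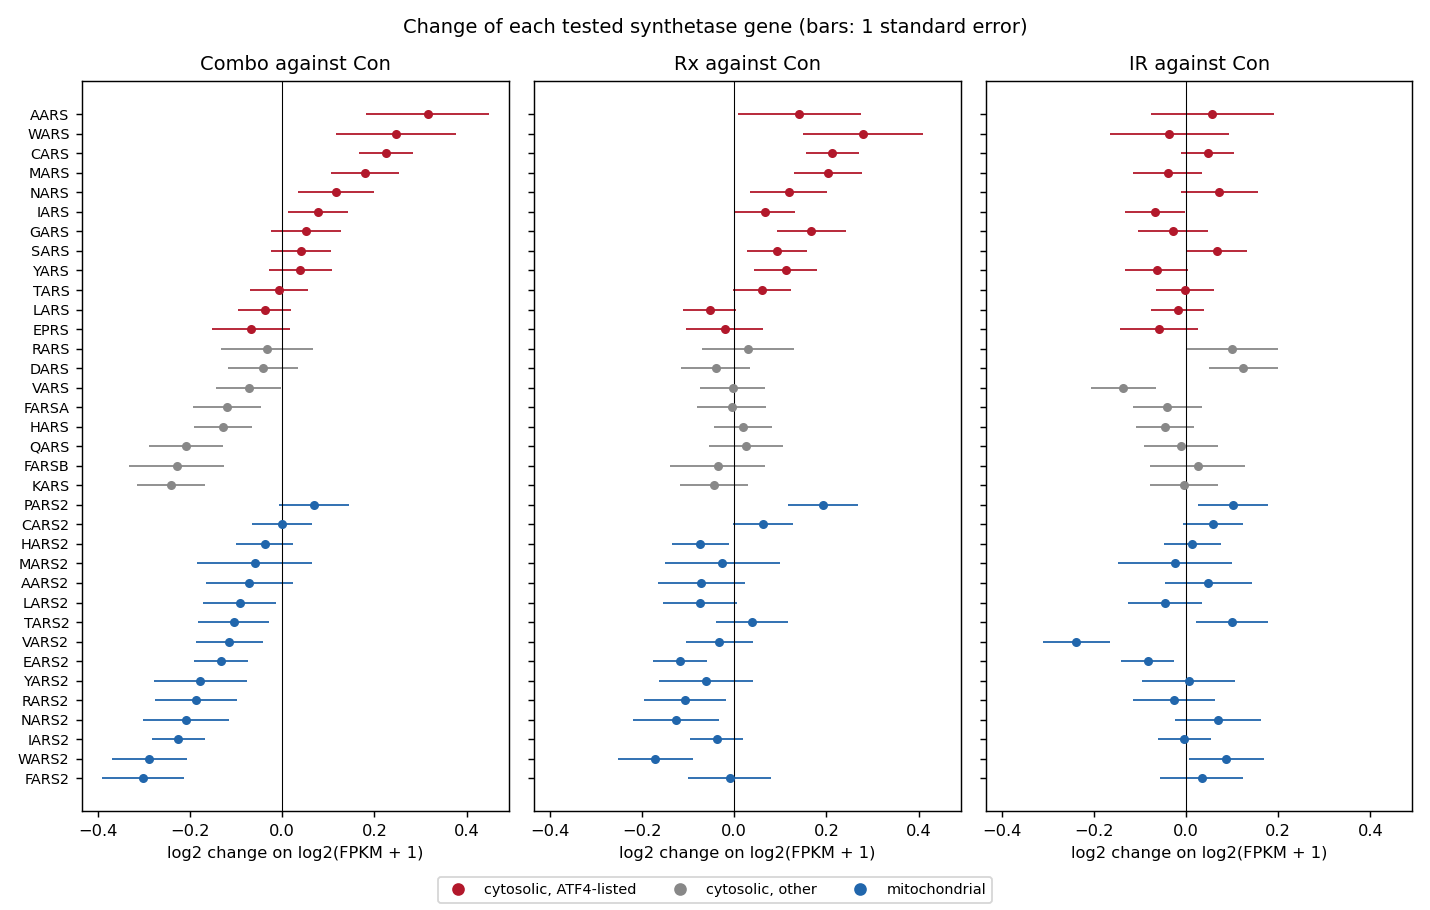
Log2 difference of each tested synthetase gene in Combo, Rx and IR, each against Con, on the log2(FPKM + 1) scale; bars are 1 standard error from limma and colours give the set. In Combo, genes listed as ATF4 targets lie up to 0.32 above Con, and 14 of 15 mitochondrial genes lie below it; in IR most bars cross 0. The 3 panels share the Con libraries.

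Adding QTP to radiation gave the largest single difference of a member. In Combo against IR, WARS2 differed by -0.38 (SE 0.08, adjusted p = 0.165 by limma), and its 3 Combo libraries lay below the 3 IR libraries. Of the 15 mitochondrial members, 14 were lower in Combo, where 52.6% of genes were, with a median of -0.12 (-0.046 without IR 3 and Combo 3; -0.028 with 8 of 15 lower under TPM), and 5 of them had an unadjusted p under 0.05, where 11.6% of genes were lower at that p. The median was -0.01 for all tested genes and -0.05 for genes that averaged 5 FPKM or more. Groups did not overlap for 8 members lower in Combo, where 11.6% of genes were, and for 4 higher, where 8.53% were. Cytosolic members had a median of -0.01 (0.098 under TPM and 0.11 under quantile scaling), with 8 of the 12 listed as ATF4 targets higher, where 47.4% of genes were, and 7 of the other 8 lower; CARS, MARS and IARS were higher at an unadjusted p under 0.05, where 5.91% of genes were, and KARS, QARS, FARSB and DARS were lower at that p. No member passed, and 0% of genes did. Library IR 1 counts here: without it, CARS, KARS and WARS2 passed, among 956 genes.

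With radiation added to QTP, most members of both sets lay lower as deposited. In Combo against Rx, 14 of 15 mitochondrial members were lower, where 54.0% of genes were, with a median of -0.08, and 16 of 20 cytosolic members were lower, with a median of -0.06. The median was -0.01 for all tested genes and -0.04 for genes that averaged 5 FPKM or more. Under TPM scaling 9 of 15 mitochondrial members were lower (median -0.0070) and 6 of 20 cytosolic members (median 0.029); under quantile scaling 13 of 15 were lower (median -0.065) and 8 of 20 (median 0.019). Groups did not overlap for 9 members, all lower in Combo, where 12.7% of genes were. At an unadjusted p under 0.05, IARS2, FARS2, QARS, KARS and HARS were lower, where 6.3% of genes were, and the adjusted p was 0.545 for each (limma). The interaction, which asks whether QTP and radiation together differ from the sum of their separate differences, gave FARS2 -0.33 (SE 0.13) and IARS2 -0.18 (SE 0.08; 0.010 under TPM scaling), each with an adjusted p of 0.609 (limma). With TARS2 they were the 3 members lower at an unadjusted p under 0.05, where 5.31% of genes were, and 0% of genes passed the adjusted threshold.

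With QTP averaged over both arms, which uses all 12 libraries, CARS had a log2 difference of 0.20 (SE 0.04) and WARS2 of -0.27 (SE 0.06), each with an adjusted p of 0.122 (limma). Neither passed, and 0.092% of all genes did. Of the 12 members listed as ATF4 targets, 10 were higher with QTP, 6 of them at an unadjusted p under 0.05 (CARS, MARS, WARS, GARS, IARS, YARS), where 5.21% of genes were higher at that p. Of the 15 mitochondrial members, 12 were lower, where 51.9% of genes were, and 4 had an unadjusted p under 0.05 (WARS2, IARS2, NARS2, FARS2), where 6.17% of genes were. CARS was the member whose 6 QTP libraries all lay above the 6 others, where 0.621% of genes did, and NARS2 (asparagine) the one whose QTP libraries all lay below, where 0.23% of genes did. With radiation averaged over both arms, VARS2 differed by -0.16 (SE 0.05, adjusted p = 0.410) and IARS2 by -0.10 (SE 0.04, adjusted p = 0.549, both limma); they were the members lower at an unadjusted p under 0.05, where 5.17% of genes were, and 0% of genes passed.

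Paired by amino acid, the cytosolic gene over the mitochondrial one, 7 of 15 pairs (CARS, FARSA, IARS, MARS, RARS, TARS and YARS) had the higher ratio in Combo than in Con without overlap and 0 the lower. In Rx against Con it was 1 pair, NARS over NARS2, and 0 lower, and in Combo against IR it was 9 pairs, with 1, SARS over SARS2, lower. FARSA and FARSB share FARS2. No such counts were made for ratios of other genes, so these have no background share. FARSA, RARS and TARS were themselves lower in Combo than in Con (log2 differences of -0.12, -0.03 and -0.01). Their mitochondrial partners FARS2, RARS2 and TARS2 lay lower still (-0.30, -0.19 and -0.11). Tryptophan and isoleucine are given in full because WARS2 and IARS2 are described above. WARS had 10.6, 7.95 and 10.0 times the FPKM of WARS2 in Combo and 8.99, 7.92 and 9.31 times in Rx, against 6.74, 4.8005 and 5.49 times in IR and 5.93, 4.89 and 8.20 times in Con. QTP libraries lay above IR without overlap, and Con 3 lay among them. IARS had 1.42, 1.41 and 1.53 times the FPKM of IARS2 in Combo and 1.20, 1.28 and 1.31 times in Rx, against 1.11, 1.11 and 1.14 times in IR and 1.11, 1.16 and 1.25 times in Con. Combo lay above the other 9 libraries in this ratio. For histidine the genes stand head to head on chromosome 5 with 84 bases between their RefSeq starts (chr5:140691371-140691454). HARS had 10.8, 10.6 and 9.94 FPKM in Combo, 11.7, 11.3 and 12.02 FPKM in Rx, 10.7, 11.03 and 11.6 FPKM in IR and 10.7, 11.9 and 11.99 FPKM in Con. HARS2 had 12.5, 12.8 and 12.6 FPKM in Combo, 12.1, 13.0 and 11.8 FPKM in Rx, 13.6, 13.0 and 12.8 FPKM in IR and 12.3, 13.99 and 12.8 FPKM in Con. The groups overlapped for HARS2, HARS was lower in Combo than in Rx, and the deposited gene bodies share 437 bases, so their reads there cannot be assigned without strand.

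The cytosolic set was also counted by membership of the multisynthetase complex. The 8 complex members had a median of -0.04 in Combo against Con (2 higher, 6 lower), and the 12 outside it a median of 0.04 (7 higher, 5 lower). Of all tested genes 48.5% were higher and 51.5% lower. In the complex, KARS and QARS were lower at an unadjusted p under 0.05, where 7.69% of genes were. MARS was higher at that p, where 5.49% of genes were. The difference between these sets was not tested. Of the scaffold genes, AIMP1 had 16.6, 16.2 and 15.1 FPKM in Combo, 18.2, 17.3 and 18.9 FPKM in Rx, 15.5, 19.3 and 23.6 FPKM in IR and 15.8, 18.6 and 18.1 FPKM in Con. AIMP2 had 9.93, 9.74 and 9.39 FPKM in Combo, 11.7, 10.6 and 11.7 FPKM in Rx, 11.2, 10.7 and 10.9 FPKM in IR and 9.82, 12.5 and 11.2 FPKM in Con. EEF1E1 had 6.56, 5.50 and 5.51 FPKM in Combo, 6.45, 5.81 and 4.89 FPKM in Rx, 5.71, 5.70 and 7.98 FPKM in IR and 5.16, 5.93 and 4.79 FPKM in Con. For all 3 scaffold genes Combo and Con overlapped.

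Other genes for mitochondrial protein synthesis also lay below the control. All 4 genes that finish mitochondrial charging, GATB, GATC and QRSL1 for the glutamine tRNA and MTFMT for the formyl group on the starting methionine, were lower in Combo than in Con, where 51.5% of all tested genes were, with a median of -0.14. So were all 9 genes for mitochondrial translation factors, with a median of -0.15. At an unadjusted p under 0.05 there were 2 of the 4 and 4 of the 9, where 7.69% of genes were lower, and 0 passed the adjusted threshold (limma). In Rx against Con, 3 of the 4 and 8 of the 9 were lower, where 48.3% of genes were, with medians of -0.05 and -0.07.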

How the data were processed

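RNA was sequenced from 12 libraries. Per the labels' protocols, Trizol lysates were purified on RNeasy columns, and NEBNext Ultra libraries were read on a NovaSeq6000. The authors deposited FPKM per gene, with symbols, biotypes, gene lengths and hg38 coordinates (build from the submitters' processing notes). Not given in the sources used here: aligner, counter, strand setting. FPKM times gene length fell on whole steps for 100% of values above 0 in every library (tolerance 0.01), and the steps gave the reads. Replicates differed by more than sampling noise in every group, so each library counts once.

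Expression was log2(FPKM + 1), which understates differences of low genes, for the 13038 genes that averaged 1 FPKM or more. A linear model of the 4 groups was fitted to all 12 libraries in R 4.3.3 (limma 3.58.1; variance trend, two-sided moderated tests, Benjamini-Hochberg over all tested genes, threshold 0.05), which was tested on simulated data. Averaged comparisons weight both arms equally. Values in every library are given for the 4 members with the smallest p in Combo against Con, the 2 with the smallest in each other comparison, the highest and lowest of each set, HARS and HARS2, and for ATF4, ASNS, the scaffold genes and DDIT3, which was added for its overlap with MARS. The members, the lists and these rules were chosen with earlier results of these data known. Promoter windows and their sequences are from RefSeq (GRCh38.p14). Coordinates of genes are as deposited.

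Alternatives were a pseudocount of 0.1, a filter at 5 FPKM or none, scaling by TPM, median of ratios or quantiles, fits of the compared groups only, without the variance trend, with quality weights, with the replicate number as a block or of protein-coding genes alone, and each library, or IR 3 with Combo 3, left out. A count model and TMM scaling had been planned and were not run, because the deposited unit is FPKM. After seeing the data, limma voom on the recovered reads, with median-of-ratios library sizes, was added in their place, as were ratios of sums without AARS, without IARS2, without GARS and KARS, or without overlapping members.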

Additional observations from a re-analysis of the deposited data

How the results depend on the processing

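With library quality weights, 3 members passed in Combo against Con (CARS, KARS, IARS2), 1 in IR against Con (VARS2), 15 in Combo against IR and 4 with QTP averaged (CARS, MARS, WARS, WARS2), among 365, 683, 3470 and 689 genes; that fit gave IR 2 a weight of 8.20. Leaving out each library gave 0 to 3 members in Combo against IR and 0 in the other 7 comparisons, and the remaining alternatives gave 0 in all 8, among them voom. Median of ratios gave the same factor, 1.0075, for every library, so it left the deposited scaling as it was. The library sizes for voom came from that method, so voom was no change of scaling either. With the replicate block, 0 members passed in any comparison, and 90 genes did in Combo against Con. The numbers share no stated source. After the mean of its group was taken from each gene, the remainders of same-numbered libraries of different groups correlated at -0.207 to 0.354, 11 of 18 pairs above 0.1. By the mean of these correlations, 10 of 12 libraries went best with their own number, a hint from the data only.

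Scaling moved the medians. TPM shifted the median of all genes in IR against Con to -0.09 (0.01 as deposited) and in the interaction to 0.16 (-0.03 as deposited). TPM gave the cytosolic members medians of -0.045 (Rx against Con), -0.12 (IR against Con), 0.098 (Combo against IR), 0.029 (Combo against Rx) and 0.13 (interaction), and the mitochondrial members, in the same order, -0.15, -0.093, -0.028, -0.0070 and 0.070. Quantile scaling gave the cytosolic members 0.036 (Combo against Con), -0.066 (IR against Con), 0.11 (Combo against IR), 0.019 (Combo against Rx) and 0.070 (interaction), and the mitochondrial interaction -0.031. The mitochondrial medians in Combo against Con, Rx against Con and with QTP averaged, and those of the members listed as ATF4 targets, kept their sign under TPM and quantile scaling. They also kept it under voom, which did not change the scaling. Without IR 3 and Combo 3, the mitochondrial medians were -0.046 in Combo against IR and 0.0079 for the interaction. The interaction of IARS2 was 0.010 under TPM. Causes were not tested.

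The difference in the ratio of cytosolic to mitochondrial sums, leaving out each library, was 0.469 to 0.700 for Combo against Con, 0.456 to 0.687 for Combo against IR, 0.0966 to 0.336 for Combo against Rx, -0.0509 to 0.0574 for IR against Con, 0.280 to 0.436 for Rx against Con and 0.414 to 0.530 with QTP averaged. Without AARS it was 0.389 (Combo against Con) and 0.401 (Combo against IR); without overlapping members 0.867, 0.822 and, against Rx, 0.469. Leaving out members also moves the ratio in Con, to 4.08 without AARS and 5.30 without overlapping members (4.66 with all). The 49 results of single members with an unadjusted p under 0.05 gave 1201 values under the alternatives. None of the 49 had passed the adjusted threshold. Of the 1201, 1178 still did not pass and kept their sign, 22 newly passed and 1 changed sign. The 1178 therefore say little about how firm the differences are. With 3 libraries a group, the precision limits the small differences seen here, and SARS2 (7 to 36 reads) and FARS2 (115 to 198 reads) are the least well measured.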
